A study of Pyrus communis with 12 samples.

Results

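The transcripts of young pear skins were compared between RCF1, the red bud sport ‘Red Clapp Favorite’, and CF1, its green parent ‘Clapp Favorite’, both of Pyrus communis. Skins of both were taken 2 days past full bloom (days after full bloom, DAFB). A bud sport is a shoot whose fruit differs from that of the tree it arose on, so the pair share nearly all of their genome. Each group had 3 libraries of poly(A) RNA from fruit skins. Per the study's methods, fruit were pooled within each biological replicate, the trees were 6 years old and grafted on Pyrus betulaefolia, and the fruit of both cultivars were still similarly green on that day. The same cultivars had been sampled again at 5 DAFB, when their colours differed (RCF2 and CF2, 3 libraries each). The sport is a single line, so a difference between the groups cannot be told apart from any other difference between these cultivars or trees. All genes of the deposited table with an FPKM of at least 1 in 3 or more of its 12 libraries were compared, which kept 25707 of 42760 genes. FPKM is the number of sequenced fragments scaled to the length of the transcript and to the depth of the library.

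Red pear skin owes its colour to anthocyanins, flavonoid pigments that are made from phenylalanine through chalcone synthase and anthocyanidin synthase, decorated with sugars and moved into the vacuole with the help of a glutathione S-transferase. MYB transcription factors switch the genes of this pathway on as a group, together with bHLH and WD40 partners. At this age the skin belongs to a fruitlet that has just been pollinated, and its cells are dividing, laying down cuticle and carrying out photosynthesis.

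The libraries of RCF1 resembled each other closely, with correlations of log2(FPKM + 1) across genes of 0.983 to 0.986 as a description, whereas CF1 replicate 3 reached 0.844 to 0.911 with the other libraries of its group. CF1 replicate 3 also detected fewer genes at 1 FPKM or more, 22192, against 24342 to 24496 in RCF1 and 24203 and 24387 in CF1 replicates 1 and 2. Markers of epidermis and cuticle were present in both groups, and the summed FPKM of 48 cuticle and wax genes was 1542 to 1787 in RCF1 and 1453 to 1564 in CF1 replicates 1 and 2, but 873 in CF1 replicate 3. The summed FPKM of 75 genes of dividing cells was 570 to 669 in RCF1, against 530 to 582 in those replicates and 306 in CF1 replicate 3. The 44 genes of green tissue summed to 2755 to 3472 in RCF1 and to 3831 to 4829 in CF1, with no overlap. For 28 pollen and anther genes the sums were 3059 to 3639 in RCF1 and 3036 to 3437 in CF1. No tested marker was at 0 in all 6 libraries, which the minimum FPKM for testing had made likely. Of 94 genes with cuticle and wax domains, 48 passed that minimum. In bulk RNA, fewer cells of a type and less RNA per cell cannot be told apart. Calls at 2 DAFB were therefore made with all 6 libraries and again without CF1 replicate 3. Where a single log2 fold change is printed for a gene at 2 DAFB, it comes from all 6 libraries. What sets that library apart was not tested.

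A gene was called different where limma gave an unadjusted P under 0.05 and a log2 fold change of at least 1 in size, RCF1 over CF1, on log2(FPKM + 1). A fold change on this scale understates the change of weakly expressed genes. With all 6 libraries, 742 genes were called (2.89% of those tested): RCF1 exceeded CF1 in 261 (1.02%) and was below it in 481 (1.87%). Rescaling each library to the same sum (TPM), which also raised the values relative to the added 1, gave 449 and 447. On log2(FPKM + 0.1), 597 of 1231 called genes were higher. The excess of decreases thus depended on the processing, and which step accounts for it was not tested. Without CF1 replicate 3, 526 were called (2.05%), 167 higher (0.65%) and 359 lower (1.4%). An adjusted P (Benjamini-Hochberg, limma) under 0.05 together with that fold change was met by 6 genes with all libraries (0.0233%) and by 102 without CF1 replicate 3 (0.397%). The unadjusted P alone was under 0.05 for 4007 and 4661 genes. In both fits and with the same sign, 371 genes were called (1.44%), 142 of them higher (0.552%) and 229 lower (0.891%), and none was called in opposite directions. These 371 genes are described first. The groups did not overlap in 141 of the 142 and in 226 of the 229. Over all tested genes, RCF1 lay above CF1 without overlap in 20.4% and below it in 8.79%. A gap between the groups is thus nearly fixed by the call, and is given below as a description. Another 371 were called only with CF1 replicate 3 included and 155 only without it. The counts also depended on other single libraries: without CF1 replicate 2 the 6-library count was 2359, without RCF1 replicate 2 it was 448, and the number called in both fits was 203 without CF1 replicate 1 and 1181 without CF1 replicate 2.

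The strongest difference was in PcGSTF12 (PCP025171, scaffold01336, bases 79498 to 82187), a glutathione S-transferase whose counterpart in Arabidopsis carries anthocyanins and proanthocyanidins to the vacuole. PcGSTF12 was at 84.6, 106 and 96.9 FPKM in RCF1 and at 1.71, 3.15 and 1.24 FPKM in CF1. All RCF1 libraries were far above all CF1 libraries, and the log2 fold change was 5.04 ± 0.25 (SE, limma adjusted P = 0.0228), or 4.85 without CF1 replicate 3 (adjusted P = 0.00687). PcMYB114 (PCP008283, scaffold00046, bases 395596 to 397650), an R2R3-MYB of the clade that activates anthocyanin genes in pear, was at 2.19, 2.86 and 2.99 FPKM in RCF1 and at 0, 0.0614 and 0.0387 FPKM in CF1. Its transcript was scarce in the sport and nearly missing from the parent, with a log2 fold change of 1.83 ± 0.13 with and 1.83 without CF1 replicate 3 (adjusted P = 0.0425 and 0.0265). The primer pairs with which the study amplified these transcripts, and that of the chalcone synthase gene PcCHS described further on, are shown to identify them, 5′ to 3′, with the 5 bases of the 3′ end, where extension starts, in capitals.
PcGSTF12 forward (PCP025171): gtcagccgtttGGGCA
PcGSTF12 reverse (PCP025171): gagtgtaaaccaggtCGTTG
PcMYB114 forward (PCP008283): gaaacaggtctaaacagaTGCAG
PcMYB114 reverse (PCP008283): gaggtcttatgacggATGTG
PcCHS forward (PCP023048): acatctccgtgaaGTAGG
PcCHS reverse (PCP023048): aatccagaagagcGAGTT

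Beside PcGSTF12 and PcMYB114, 4 genes had an adjusted P under 0.05 with all 6 libraries. PCP013133, an oxoglutarate/iron-dependent oxygenase, the superfamily that also holds anthocyanidin synthase, was at 8.32, 16.4 and 12.1 FPKM in RCF1 and at 0.287, 0.295 and 0.159 FPKM in CF1 (log2 fold change 3.37, limma adjusted P = 0.0425). PCP030457, a protein with a ribonucleotide reductase-related domain, was at 7.76, 12.4 and 10.7 FPKM in RCF1 and at 0.632, 0.214 and 0.151 FPKM in CF1 (log2 fold change 3.08, limma adjusted P = 0.0425). PCP045136, whose domain is named for the bacterial CrcB protein, a fluoride exporter, was at 6.98, 6.34 and 6.77 FPKM in RCF1 and at 1.54, 1.24 and 1.22 FPKM in CF1 (log2 fold change 1.72, limma adjusted P = 0.0425). In all 3 genes every RCF1 library lay above every CF1 library. The single one of the 6 that fell was PCP030987, an F-box/kelch-repeat protein, a class that picks proteins for ubiquitination. It was at 1.61, 1.55 and 1.51 FPKM in RCF1 and at 6.35, 6.36 and 7.03 FPKM in CF1, with little spread within either group and a log2 fold change of -1.57 (limma adjusted P = 0.0425).

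**Figure D1:**
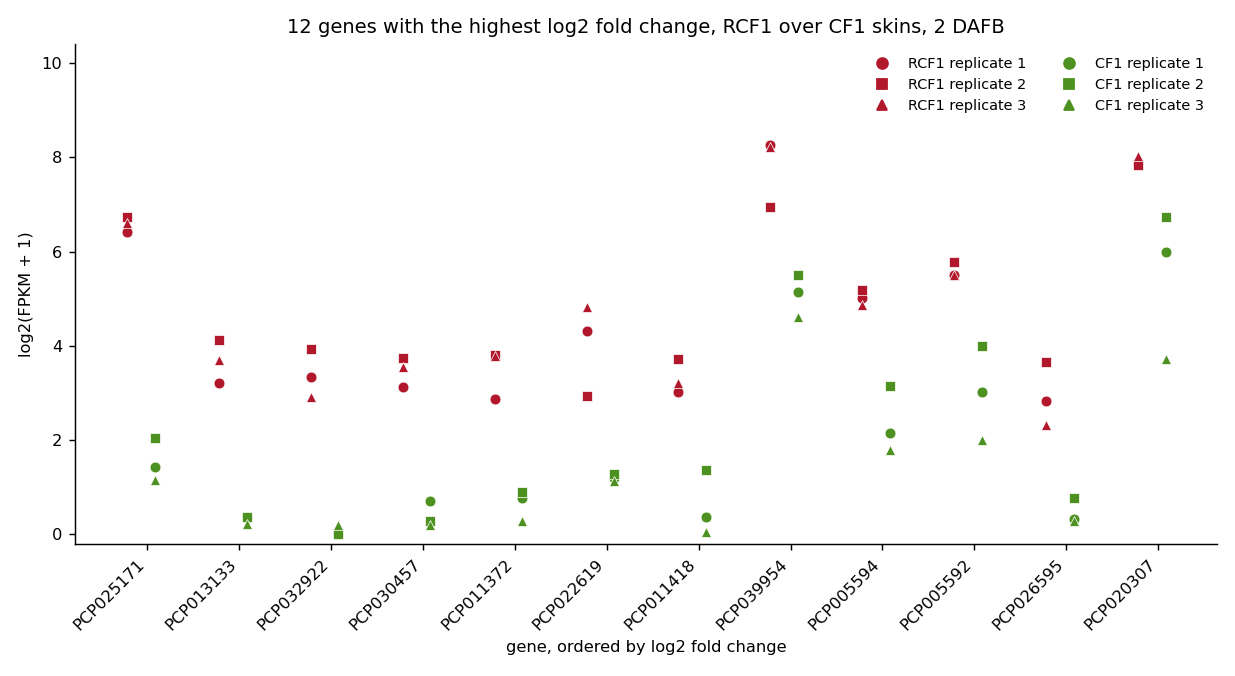
Level as log2(FPKM + 1) of the 12 genes with the largest log2 fold changes among those called with and without CF1 replicate 3, with 1 point per library (RCF1 red, left of CF1 in green, for each gene). PcGSTF12 (PCP025171) stands furthest apart, at 84.6 to 106 FPKM in RCF1 and 1.24 to 3.15 FPKM in CF1.

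Enzymes of fermentation were among the transcripts that rose. Pyruvate decarboxylase turns pyruvate into acetaldehyde, the step that commits sugar to ethanol when oxygen is short. PCP005592, named pyruvate decarboxylase 4, was at 44.5, 53.7 and 44.4 FPKM in RCF1 and at 7.11, 14.9 and 3.03 FPKM in CF1 (log2 fold change 2.59, or 2.09 without CF1 replicate 3, limma adjusted P = 0.159 and 0.0565). PCP002576, a far more abundant pyruvate decarboxylase, was at 371, 456 and 415 FPKM in RCF1 and at 111, 179 and 33.0 FPKM in CF1 (2.23, or 1.54 without that library). PCP025189 was at 105, 135 and 122 FPKM in RCF1 and at 39.2, 35.8 and 57.7 FPKM in CF1 (1.45, or 1.66 without it). None of the 3 overlapped between the cultivars, as in nearly all genes called in both fits. PCP032922, with a hypoxia-induced protein domain, a family of small mitochondrial membrane proteins, was at 9.18, 14.2 and 6.55 FPKM in RCF1, against 0, 0 and 0.152 FPKM in CF1, where it was all but undetected (3.33 with all libraries, and listed at 0 in both CF1 libraries that remain without replicate 3). Of 28 genes with domains of low-oxygen metabolism, a list that also holds alcohol dehydrogenases, lactate and malate dehydrogenases and globins, these 4 rose in both fits (14.3%, against 0.552% of all genes) and none of the list fell. The list was built from domain names with earlier results of these data known, so its share is a description. It misses PCP002967, whose domain is a leghaemoglobin iron-binding site and which fell in both fits (-1.65, or -1.25). The median log2 fold change of the list was 0.20, or 0.08 without CF1 replicate 3, beside 0.12 and 0.03 for all genes. The increase was thus found in a few members, and no alcohol dehydrogenase was called in both fits. PCP002576 and PCP025189 were singled out after their values were seen. PCP045155, a phosphofructokinase of glycolysis chosen in the same way, also rose, at 139, 164 and 152 FPKM in RCF1 and 40.2, 52.4 and 51.8 FPKM in CF1 (1.64, or 1.70 without CF1 replicate 3).

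Of the 48 gene lists described, the one with the largest share of genes that rose was the wound-induced proteins, small proteins of unknown function named for transcripts that appear after wounding. All 48 lists were chosen with earlier results of these data known, so their shares and order are a description. Of 17 members tested, 6 rose in both fits (35.3%, against 0.552% of all genes), 9 without CF1 replicate 3, and none fell. Their median log2 fold change was 0.68, or 1.05 without that library. PCP014641 was at 29.8, 31.1 and 34.9 FPKM in RCF1 and at 8.99, 7.28 and 10.01 FPKM in CF1 (log2 fold change 1.76 ± 0.15 SE, limma adjusted P = 0.0538, and 0.0257 without CF1 replicate 3). PCP020689 was at 59.6, 59.6 and 79.2 FPKM in RCF1 and at 23.9, 28.1 and 18.4 FPKM in CF1 (1.46, adjusted P = 0.117 and 0.0497). The cultivars did not overlap in either gene. The other members that rose in both fits, named after their values were seen, were PCP042398 (1.39), PCP041087 (1.22), PCP014642 (1.09) and PCP042085 (1.02). The last pair are near the fold threshold: PCP014642 dropped under it without CF1 replicate 2 (0.94) or RCF1 replicate 3 (0.91), and PCP042085 without CF1 replicate 2 (0.95), RCF1 replicate 2 (0.996) or RCF1 replicate 3 (0.92). Under quantile normalization both also fell short, at 0.95 and 0.93.

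Summed over its 17 members, the wound-induced family was at 1174, 1193 and 1316 FPKM in RCF1 and at 792, 696 and 1042 FPKM in CF1, so that each RCF1 library was above each CF1 library. In 8 members the cultivars did not overlap with RCF1 higher (20.4% of all genes did so), and in none with RCF1 lower (8.79% of all genes). The libraries of 5 DAFB, which did not enter the test at 2 DAFB, gave 900, 789 and 828 FPKM in RCF2 and 323, 306 and 367 FPKM in CF2. In those libraries 11 members were called higher and 2 lower, beside 0.902% and 0.358% of all genes, with a median log2 fold change of 1.62. PCP014641 averaged 16.1 FPKM in RCF2 and 1.78 FPKM in CF2, and PCP020689 averaged 105 FPKM in RCF2 and 10.4 FPKM in CF2 (limma adjusted P = 0.00104 and 0.00091). PCP042084 and PCP024904 were the 2 called lower in RCF2, with log2 fold changes of -1.03 and -1.21. The family sits in groups along the genome: 5 members lie on scaffold00271 between bases 190596 and 215007, and PCP014641 and PCP014642 lie side by side on scaffold00070, 3248 bases apart. How fragments that fit several such copies were assigned is not given in the sources used here, so single members are less certain than the sum.

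**Figure D2:**
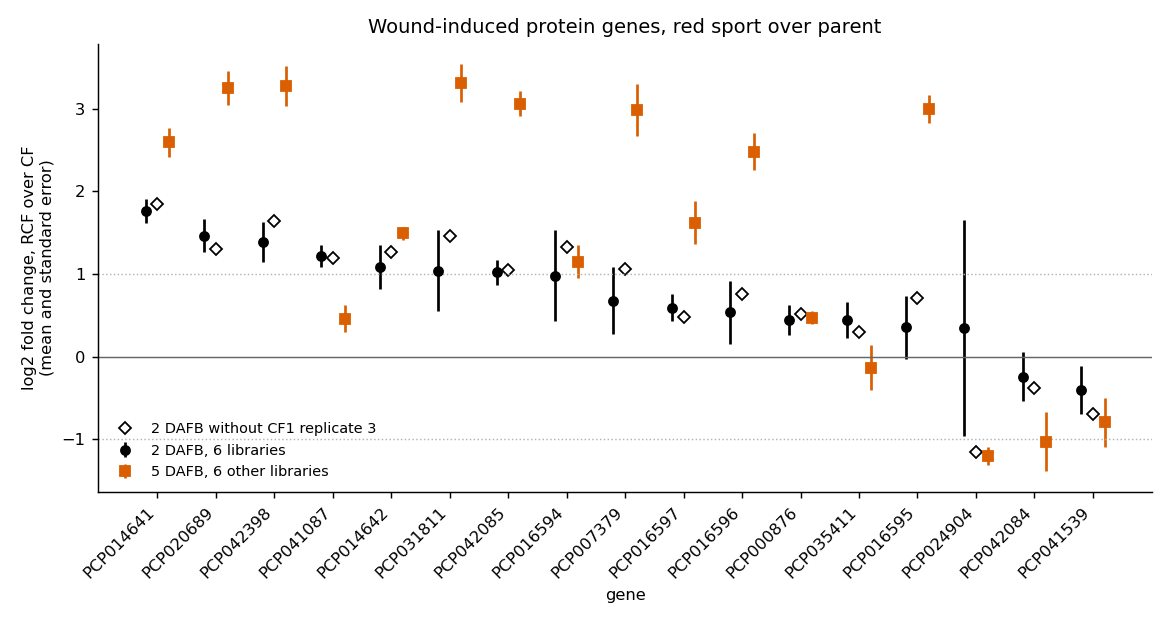
Log2 fold change of each of the 17 wound-induced genes at 2 DAFB with and without CF1 replicate 3 and at 5 DAFB (RCF2 over CF2), with bars for the standard error where drawn and dotted lines at the fold threshold. At 2 DAFB 6 members were called higher in both fits and none lower, and at 5 DAFB 11 were called higher and 2 lower.

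AP2/ERF transcription factors, many of which act in ethylene and stress signalling, gave 6 genes that rose in both fits of 143 tested (4.20%, against 0.552% of all genes) and 1 that fell (0.699%, against 0.891%). PCP026280, named ERF107, was at 218, 194 and 253 FPKM in RCF1 and at 70.1, 64.4 and 51.1 FPKM in CF1 (log2 fold change 1.83, or 1.70 without CF1 replicate 3, limma adjusted P = 0.062 and 0.0265). PCP003154 was at 18.1, 19.8 and 35.4 FPKM in RCF1 and at 10.4, 8.05 and 1.46 FPKM in CF1 (1.94, or 1.26). PCP026280 was separated by more than its spread, while PCP003154 lost its call when RCF1 replicate 3 was left out (1.65). PCP016876, named ERF1B after the Arabidopsis factor that joins ethylene and jasmonate signals in defence, fell. It was at 0.960, 0.622 and 0.523 FPKM in RCF1 and at 6.70, 3.24 and 4.79 FPKM in CF1, again with no overlap (-1.76 in both fits). The median of the whole family was 0.24, or 0.06 without CF1 replicate 3.

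SAUR genes, which auxin induces early and several of which promote cell expansion in Arabidopsis, had few calls. Of 29 tested, 2 rose (6.90%, against 0.552% of all genes) and 1 fell (3.45%, against 0.891%) in both fits. PCP002396 was at 22.9, 21.3 and 32.5 FPKM in RCF1 and at 4.85, 4.64 and 4.73 FPKM in CF1 (log2 fold change 2.19 in both fits, limma adjusted P = 0.0525 and 0.0265). PCP011894, named SAUR72-like, was at 133, 156 and 185 FPKM in RCF1 and at 43.5, 34.2 and 28.6 FPKM in CF1 (2.13, or 1.99). Neither overlapped between the cultivars. PCP037299, named SAUR50, was low at 2 DAFB, at 1.41, 0.775 and 1.18 FPKM in RCF1 and 3.50, 3.24 and 3.63 FPKM in CF1 (-1.08, and -0.96, under the threshold, without RCF1 replicate 2). The median of the family was 0.00, and -0.28 without CF1 replicate 3.

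Other transcripts that rose covered several functions. PCP039954, a terpenoid synthase, was at 305, 122 and 296 FPKM in RCF1 and at 34.4, 44.4 and 23.6 FPKM in CF1 (log2 fold change 2.71, or 2.48 without CF1 replicate 3). PCP022619, a carboxyl methyltransferase of the group that makes methyl salicylate, methyl jasmonate and related esters in other plants, was at 18.8, 6.67 and 27.2 FPKM in RCF1 and at 1.28, 1.43 and 1.21 FPKM in CF1 (2.82, or 2.79). PCP007404, sterol 14-demethylase, a cytochrome P450 of sterol synthesis, was at 74.5, 89.1 and 93.3 FPKM in RCF1 and at 24.1, 30.6 and 9.60 FPKM in CF1 (2.08, or 1.61). In each of them RCF1 and CF1 were apart, with limma adjusted P of 0.131, 0.141 and 0.171 for PCP039954, PCP022619 and PCP007404. PCP011372, an ENOD93 protein, a family first found in legume nodules, was at 6.32, 13.0 and 12.8 FPKM in RCF1 and at 0.719, 0.860 and 0.222 FPKM in CF1 (2.84, or 2.65). PCP011418, with an RmlC-like fold, was at 7.09, 12.3 and 8.25 FPKM in RCF1 and at 0.298, 1.58 and 0.031 FPKM in CF1 (2.72, or 2.45). PCP026595, with the domain of the MLRQ subunit of mitochondrial complex I, was at 6.08, 11.6 and 4.03 FPKM in RCF1 and at 0.258, 0.708 and 0.217 FPKM in CF1 (2.47, or 2.38). These 3 genes were barely expressed in CF1. PCP005594, for which the table names no domain, was at 31.2, 35.7 and 28.2 FPKM in RCF1 and at 3.46, 7.86 and 2.47 FPKM in CF1 (2.66, or 2.37).

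Families of the cell wall and of stress changed in both directions. Of 24 genes with a pectinesterase inhibitor domain, 3 rose (12.5%, against 0.552% of all genes) and 2 fell (8.33%, against 0.891%) in both fits. PCP007916 and PCP039460 rose by log2 fold changes of 1.71 and 1.53, and PCP039460 lost its call without CF1 replicate 1 (1.22), RCF1 replicate 1 (1.32) or RCF1 replicate 2 (1.47). Among 48 haem peroxidases, 3 rose (6.25%) and 2 fell (4.17%). PCP012223 was at 4.75, 5.17 and 5.28 FPKM in RCF1 and at 1.54, 1.75 and 1.45 FPKM in CF1 (1.23, limma adjusted P = 0.0538), and its groups were tight and apart. PCP015198, named peroxidase 52, was at 49.0, 36.7 and 22.5 FPKM in RCF1 and at 4.59, 22.4 and 1.57 FPKM in CF1 (2.35), almost touching, and lost its call without CF1 replicate 1 (2.19), RCF1 replicate 1 (2.098) or RCF1 replicate 2 (2.30). The small heat shock proteins PCP035964 and PCP024805, chaperones of the HSP20 family, rose by 1.86 and 1.76, the only 2 of 37 HSP20 genes that rose in both fits (5.41%). PCP008920, a small MYB-like protein named after RADIALIS, a snapdragon gene of flower shape, was at 7.97, 4.55 and 6.79 FPKM in RCF1 and at 0.737, 1.59 and 1.65 FPKM in CF1 (1.67, or 1.78).

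**Figure D3:**
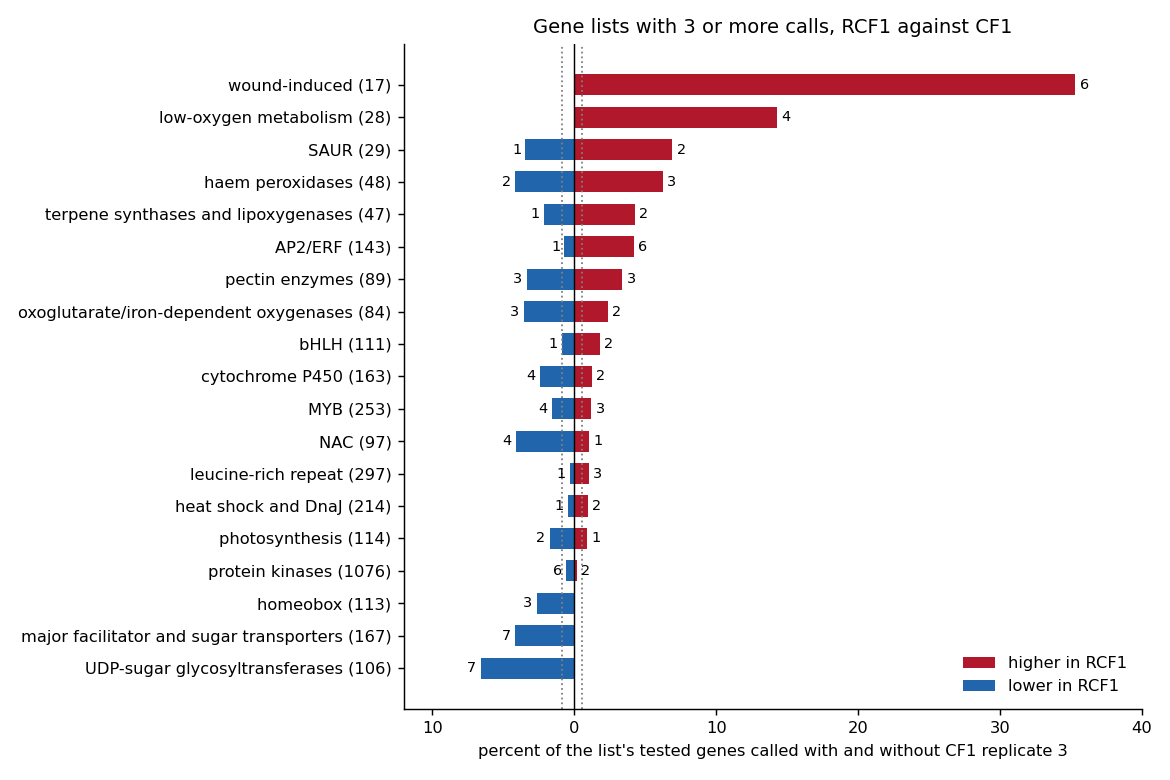
For each list with 3 or more calls, the percentage of its tested genes that were called higher (right) and lower (left) in RCF1 both with and without CF1 replicate 3, with the number called at each bar and dotted lines for all tested genes. The wound-induced list reached 35.3% higher and the low-oxygen list 14.3% higher, against 0.552% of all genes. The lists were chosen with earlier results of these data known.

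The 229 genes that fell in both fits changed by somewhat more than the 142 that rose but passed the adjusted P less often. They had a median log2 fold change of -1.68, or -1.33 without CF1 replicate 3, against 1.53 and 1.31 for the 142. Of the 229, an adjusted P (limma) under 0.05 was reached by 1 with all libraries and by 14 without CF1 replicate 3. For the 142 these numbers were 5 and 48. PCP009829, named DMP4, a membrane protein, was at 9.49, 0.122 and 3.13 FPKM in RCF1 and at 51.1, 23.4 and 95.2 FPKM in CF1 (log2 fold change -3.76 ± 0.90 SE, limma adjusted P = 0.221). PCP021832, a staygreen protein, the family that starts chlorophyll breakdown in Arabidopsis, was at 68.1, 4.93 and 43.7 FPKM in RCF1 and at 325, 107 and 461 FPKM in CF1 (-3.27 ± 1.03 SE, adjusted P = 0.277). In both genes the groups were apart but the 3 libraries of a group were spread several fold. PCP021832 lost its call without CF1 replicate 1 (-3.09). PCP011324, a cupredoxin, a copper-binding protein, was tighter in the sport, at 25.5, 15.6 and 29.1 FPKM in RCF1 and 260.4, 82.5 and 405 FPKM in CF1 (-3.13 ± 0.60 SE, adjusted P = 0.16).

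The largest decreases shared 1 order of libraries. PCP034419, with a C1-like domain, was at 5.32, 0.319 and 1.28 FPKM in RCF1 and at 32.9, 12.6 and 54.5 FPKM in CF1 (log2 fold change -3.47). PCP006011, a pectin lyase fold enzyme, was at 13.5, 2.32 and 8.37 FPKM in RCF1 and at 53.3, 25.7 and 111 FPKM in CF1 (-2.83). PCP028856, named as an inhibitor of fructosidases, the enzymes that split sucrose, was at 92.3, 10.1 and 67.4 FPKM in RCF1 and at 316, 148 and 513 FPKM in CF1 (-2.81, not called without CF1 replicate 1, at -2.74). In each of these, replicate 2 was the lowest of its own group in both cultivars and CF1 replicate 3 was the highest. Over the 229 genes, RCF1 replicate 2 was the lowest RCF1 library in 169 (73.8%, against 38.2% of all genes), CF1 replicate 2 the lowest CF1 library in 197 (86.0%, against 30.5%) and CF1 replicate 3 the highest in 188 (82.1%, against 31.9%). The genes were chosen on these libraries, so the shares are a description. Among the 142 genes that rose, CF1 replicate 2 was the highest CF1 library in 94 (66.2%, against 48.0% of all genes) and CF1 replicate 3 the lowest in 90 (63.4%, against 54.9%). What the shared order reflects was not tested. Other genes among the 12 strongest decreases were PCP015521 (-3.37), PCP040745 (-3.21), PCP013304 (-3.18), PCP010067 (-2.95), PCP026788 (-2.83) and PCP011364 (-2.80), of which only PCP015521 (a vacuolar sorting domain) and PCP026788 (DUF677) carry a domain name.

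**Figure D4:**
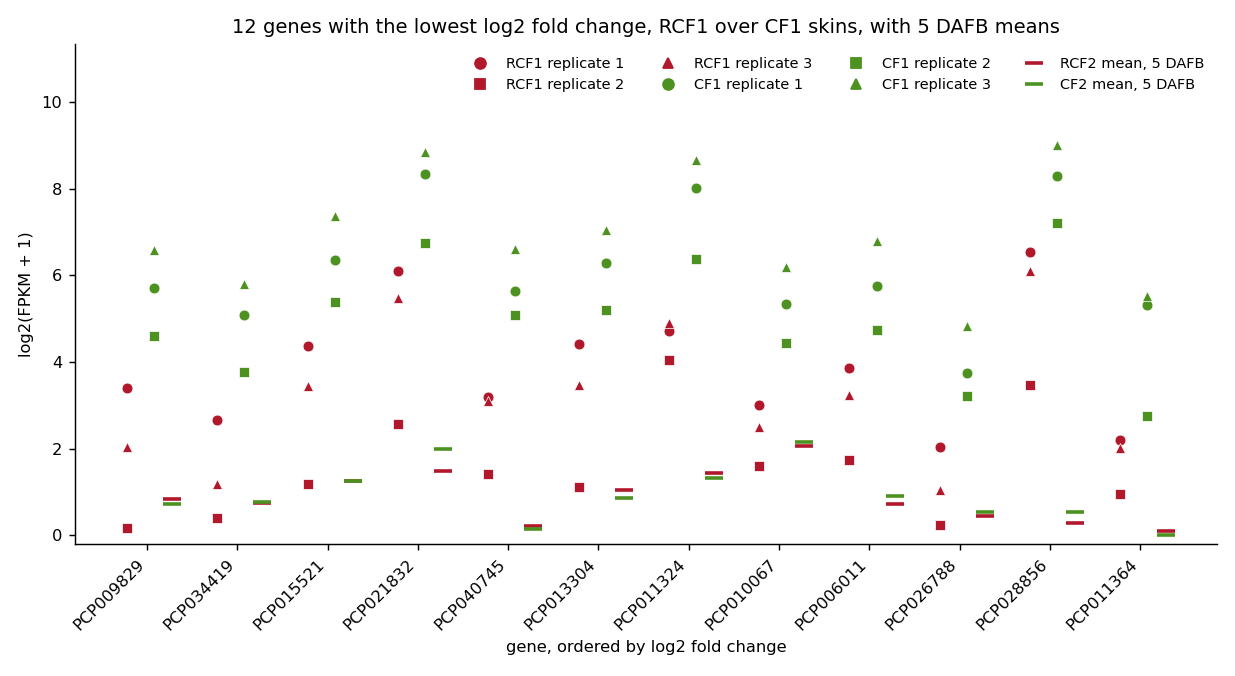
Level as log2(FPKM + 1) of the 12 genes with the largest decreases in RCF1 among those called with and without CF1 replicate 3, with 1 point per library (RCF1 red, left of CF1 in green) and dashes for the means of RCF2 and CF2. In PCP009829 the RCF1 libraries span 0.122 to 9.49 FPKM and the CF1 libraries 23.4 to 95.2 FPKM.

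Families of sugar conjugation and transport had decreases but no increases in both fits. UDP-sugar glycosyltransferases attach sugars to flavonoids, hormones and other small molecules. Of 106 tested, 7 fell in both fits (6.60%, against 0.891% of all genes) and none rose. PCP007589 was at 1.54, 0.497 and 1.92 FPKM in RCF1 and at 19.3, 2.31 and 24.4 FPKM in CF1 (log2 fold change -2.42), and PCP010619 was at 3.24, 1.92 and 2.62 FPKM in RCF1 and at 17.7, 4.52 and 26.0 FPKM in CF1 (-1.99). CF1 replicate 2 lay close to RCF1 in both genes, and both lost their call when CF1 replicate 1 was left out (-2.04 and -1.78), PCP007589 also without RCF1 replicate 1 (-2.51) or RCF1 replicate 2 (-2.13). Summed over the family, the level was 1572, 1411 and 1385 FPKM in RCF1 and 1645, 1354 and 2516 FPKM in CF1, and so overlapped. Major facilitator and sugar transporters gave 7 decreases of 167 (4.19%) and no increase, among them PCP000917 (-2.06) and PCP025767 (-1.96). Of 46 MATE transporters, a family that includes carriers of flavonoids into the vacuole, 2 fell (4.35%). PCP007395, named DETOXIFICATION 48, was at 7.54, 7.34 and 8.35 FPKM in RCF1 and at 29.7, 13.4 and 58.5 FPKM in CF1 (-1.77), and PCP033849, named DETOXIFICATION 51, changed by -1.74. The sport was uniform for PCP007395 while the parent varied.

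Decreases also reached enzymes of the cell wall, hormones and defence. PCP013494, named ACC oxidase 1, the last enzyme of ethylene synthesis, was at 2.22, 2.58 and 1.45 FPKM in RCF1 and at 14.9, 7.22 and 31.6 FPKM in CF1 (log2 fold change -2.41, or -1.91 without CF1 replicate 3, limma adjusted P = 0.185 and 0.0691). PCP023239, named XERICO after an Arabidopsis ubiquitin ligase that raises abscisic acid, changed by -1.99. Laccases are copper enzymes that polymerise lignin precursors. Of the 33 genes in the laccase and multicopper oxidase list, 2 fell (6.06%, against 0.891% of all genes), PCP002776 (-2.70) and PCP039019 (-1.94). Many NAC transcription factors act in senescence and wall formation. Of 97 tested, 4 fell (4.12%) and 1 rose (1.03%, against 0.552% of all genes). PCP015800 and PCP029160 fell by 2.30 and 1.63 on the log2 scale, and PCP002930 rose by 1.49. Summed over the NAC family the level was 2016, 1736 and 1819 FPKM in RCF1 and 3037, 1875 and 4444 FPKM in CF1, of which replicate 2 lay within the range of RCF1. Of 163 cytochrome P450 genes, 4 fell (2.45%), PCP043349 (-2.33) and PCP020207 (-2.04) among them, and 2 rose (1.23%). Of 31 genes of VQ proteins, which bind WRKY factors in Arabidopsis, 3 fell (9.68%) and 1 rose (3.23%). The thaumatin-like PCP018798, of a family induced by pathogens, changed by -1.91. PCP032484, a lipid transfer protein, fell with a clear gap, at 38.4, 42.8 and 49.3 FPKM in RCF1 and 231, 121 and 280.1 FPKM in CF1 (-2.17). PCP020307, of the same family, rose, at 231, 227 and 259 FPKM in RCF1 and 63.0, 106 and 12.3 FPKM in CF1 (2.41, or 1.53 without CF1 replicate 3), although it missed the threshold without RCF1 replicate 3 (2.36).

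Genes of photosynthesis differed more in their sum than one by one. The summed FPKM of 114 genes was 8143, 9526 and 9998 in RCF1 and 12820, 12017 and 10742 in CF1, each RCF1 library below each CF1 library. The sum over all tested genes was lower in RCF1 too, at 599814 to 609645 against 626704 to 634742 in CF1. At 5 DAFB the sums were 9567, 10800.4 and 10485 in RCF2 and 14879, 13184 and 14488 in CF2. The median log2 fold change of the 114 genes was nevertheless 0.00 with all 6 libraries and -0.20 without CF1 replicate 3. In both fits at 2 DAFB, 1 member rose (0.877%, against 0.552% of all genes) and 2 fell (1.75%, against 0.891%). PCP028639, a chlorophyll a/b binding protein of the light-harvesting antenna, was at 3.66, 2.28 and 1.78 FPKM in RCF1 and at 30.2, 5.76 and 47.5 FPKM in CF1 (log2 fold change -2.64). PCP032736, a small chain of Rubisco, the enzyme that fixes carbon dioxide, was at 75.4, 80.7 and 67.9 FPKM in RCF1 and at 32.5, 40.3 and 36.5 FPKM in CF1 (1.02), a change at the threshold that was lost without CF1 replicate 1 (0.94) or RCF1 replicate 2 (0.96). The 44 green tissue markers given above belong to the same functions, and their part in the sum was not tested.

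PCP023499, with a nitrite/sulphite reductase domain, which acts in nitrogen or sulphur assimilation, fell at both ages. At 2 DAFB it was at 33.5, 24.0 and 34.4 FPKM in RCF1 and at 85.2, 82.4 and 88.1 FPKM in CF1 (log2 fold change -1.46 ± 0.16 SE, limma adjusted P = 0.0848, and 0.0467 without CF1 replicate 3). In the skins of 5 DAFB it averaged 11.2 ± 4.82 FPKM in RCF2 and 63.9 ± 5.12 FPKM in CF2 (SD, n = 3 each; log2 fold change -2.48, limma adjusted P = 0.00509). The gene was thus separated between the cultivars on both days.

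Of the structural pigment genes, PcCHS (PCP023048), the chalcone synthase that opens the flavonoid pathway and whose primers are printed above, was lower in the sport at 2 DAFB. It was at 0.750, 2.16 and 1.48 FPKM in RCF1 and at 7.27, 11.2 and 14.3 FPKM in CF1 (log2 fold change -2.27 ± 0.31 SE, limma adjusted P = 0.117, or -2.07 and 0.0565 without CF1 replicate 3). The other structural genes named in this paragraph were not called, and further genes of the pathway are not described. PcANS (PCP027029), the anthocyanidin synthase, was at 16.04, 22.1 and 17.3 FPKM in RCF1 and at 20.8, 19.4 and 20.2 FPKM in CF1 (-0.13 ± 0.14 SE). PCP013732, a flavanone 3-hydroxylase, was at 36.9, 38.9 and 41.8 FPKM in RCF1 and at 44.5, 53.0 and 39.4 FPKM in CF1 (-0.21 ± 0.14 SE). Both overlapped between the cultivars. The chalcone isomerase genes PCP021141 and PCP039844 had values of -0.65 and -0.27. PCP027877, which the study also lists as CHI although its domain in the table is malectin-like, was at 7.63, 7.73 and 7.57 FPKM in RCF1 and 5.04, 5.79 and 2.80 FPKM in CF1, apart and with RCF1 higher (0.68, or 0.43 without CF1 replicate 3), though not called. For the 4-coumarate-CoA ligase genes PCP003610 and PCP018170 the values were -0.21 and -0.60. PcMYB10 (PCP035580), another MYB activator of anthocyanin genes, was at 0.334, 0.112 and 0 FPKM in RCF1 and at 0.344, 0.291 and 0.0558 FPKM in CF1, too low to compare.

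The libraries of 5 DAFB did not enter the test at 2 DAFB, although they counted towards the minimum FPKM. There, 324 genes were called between RCF2 and CF2 (1.26%), 232 higher (0.902%) and 92 lower (0.358%), and 274 also met the adjusted P (1.07%). Of the 142 genes that rose at 2 DAFB, 29 were called higher at 5 DAFB (20.4%) and none lower, and 121 had a positive log2 fold change, with a median of 0.45. Of the 229 that fell, 8 were called lower (3.49%) and 2 higher (0.873%), and 158 had a negative value, with a median of -0.08. Over all tested genes, 12240 had a positive and 13440 a negative value. Of the 229, 88 averaged under 1 FPKM in both cultivars at 5 DAFB and could not reach the fold threshold on log2(FPKM + 1). The shares of the 142 and the 229 are therefore not on equal terms. PcGSTF12 averaged 195 ± 34.0 FPKM in RCF2 and 7.66 ± 0.872 FPKM in CF2 (SD, n = 3 each; log2 fold change 4.49, limma adjusted P = 3.13e-05). PcMYB114 averaged 5.08 FPKM in RCF2 and 0.111 FPKM in CF2 (2.43, adjusted P = 0.00107). The 8 called lower at both ages were PCP023499, PCP037299 (SAUR50, -1.84 at 5 DAFB), PCP002967, PCP011584, PCP044059, PCP009848, PCP031774 and the dehydrin PCP014532, a protein of drying tissue, of which all but PCP031774 also met the adjusted P (limma) at 5 DAFB. PCP002967, with the iron-binding site of leghaemoglobins, was at 275, 200.6 and 287 FPKM in RCF1 and 873, 411 and 1370 FPKM in CF1 (-1.65, or -1.25 without CF1 replicate 3), and averaged 4.56 FPKM in RCF2 and 28.5 FPKM in CF2 (-2.40, adjusted P = 0.00104). PCP011584, with no domain name, was at 263, 305 and 227 FPKM in RCF1 and 600.2, 977 and 551 FPKM in CF1 (-1.38, and -1.34 at 5 DAFB, adjusted P = 0.00274 there). Both were apart between the cultivars. PCP009848 missed the fold threshold without CF1 replicate 1 (-0.98). The dehydrin was at 196, 160.2 and 143 FPKM in RCF1 and 559, 226 and 756 FPKM in CF1 (-1.47, not called without CF1 replicate 1, RCF1 replicate 2 or RCF1 replicate 3, at -1.32, -1.44 and -1.36). PCP035439, a ring-cleavage dioxygenase, and PCP008156, an alpha/beta hydrolase, were the 2 that were lower at 2 DAFB (-1.71 and -1.26) and higher at 5 DAFB (1.73 and 1.41). Neither met the adjusted P there (0.158 and 0.068), and for PCP035439 RCF2 replicate 2, at 0.464 FPKM, lay within CF2, at 0.417 to 0.599 FPKM.

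Many of the decreases concerned transcripts that were scarce by 5 DAFB in both cultivars. Of the 229 genes that fell, 88 (38.4%) averaged under 1 FPKM in RCF2 and in CF2, against 10 of the 142 that rose (7.04%) and 4.4% of all tested genes. None of the 229 was under 1 FPKM in any CF1 library, and none of the 142 in any RCF1 library. Such genes could pass the minimum FPKM through that group alone, so the shares beside all tested genes are a description. The median gene of the 229 stood at 3.66, 2.05 and 3.05 FPKM in RCF1, 14.2, 7.72 and 20.7 FPKM in CF1, 1.19 to 1.43 FPKM in RCF2 and 1.58 to 1.65 FPKM in CF2. For the 142 that rose these medians were 13.3, 13.1 and 12.4 FPKM in RCF1, 3.66, 4.83 and 1.77 FPKM in CF1, 6.31 to 7.29 FPKM in RCF2 and 3.19 to 3.72 FPKM in CF2. At 5 DAFB the median of those that rose was thus higher in RCF2 than in CF2, although 113 of the 142 were not called there and 20 had a negative value, whereas the median of those that fell was low in both cultivars. ERF1B (PCP016876), for example, averaged 0.0232 FPKM in RCF2 and 0.0242 FPKM in CF2, and the staygreen gene PCP021832 averaged 1.80 FPKM in RCF2 and 2.95 FPKM in CF2.

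**Figure D5:**
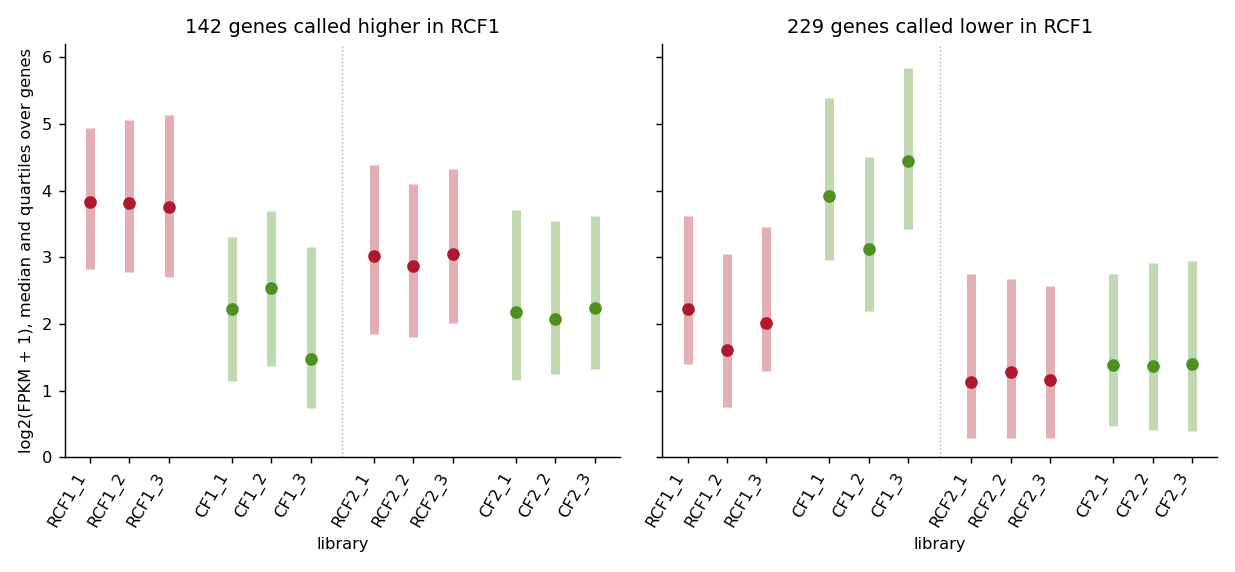
Median (points) and quartiles (bars), as log2(FPKM + 1), of the 142 genes that rose and of the 229 that fell, in each of the 12 libraries (red sport left of parent at each age). The median of the 229 is 2.05 to 3.66 FPKM in RCF1, 7.72 to 20.7 FPKM in CF1 and under 2 FPKM in every library of 5 DAFB.

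The 371 genes called only with CF1 replicate 3 included 119 that rose and 252 that fell. Those with the largest increases were PCP032379 (log2 fold change 1.55, or 0.85 without that library), the glycoside hydrolase PCP027015 (1.51, or 0.91), PCP004266 (1.46, or 0.88), the dioxygenase PCP016837 (1.46, or 1.19) and PCP015891 (1.45, or 0.88). In PCP032379 the RCF1 libraries were at 8.69, 7.46 and 6.66 FPKM and the CF1 libraries at 3.25, 4.28 and 0.111 FPKM, the last being replicate 3. The largest decreases of this kind were the cysteine protease PCP019828, named vignain (-3.59, or -3.17), the oxidoreductases PCP013305 (-3.07, or -2.74) and PCP035462 (-3.00, or -2.58), the cytochrome P450 PCP016314 (-2.79, or -2.22) and the pectinesterase inhibitor PCP035130 (-2.78, or -2.30). PCP019828, of a family found in senescing tissue, was at 50.0, 0.992 and 25.7 FPKM in RCF1 and at 162, 95.6 and 302 FPKM in CF1. These decreases kept their direction and much of their size without it, but their P was then no longer under 0.05. All 5 decreases also lost their call without CF1 replicate 1, at -3.62, -2.77, -2.70, -2.71 and -2.31, and PCP035130 without RCF1 replicate 2 (-2.09). The 5 increases lost theirs also without RCF1 replicate 1 (1.18 to 1.52) or RCF1 replicate 2 (1.40 to 1.56).

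Other genes had transcripts that were nearly missing from CF1 replicate 3, and their fold changes turned on that library. The beta-glucosidase PCP011059 (BGLU12) was at 81.6, 114 and 90.7 FPKM in RCF1 and at 247, 356 and 4.30 FPKM in CF1, which gave a log2 fold change of 0.30 with all libraries and -1.64 without replicate 3. The peroxidase PCP024451 (POX15) was at 19.1, 24.0 and 19.96 FPKM in RCF1 and at 40.6, 52.8 and 0.967 FPKM in CF1 (0.42, or -1.11), and PCP028501 (NAC66) was at 1.88, 1.57 and 1.48 FPKM in RCF1 and at 4.48, 4.61 and 0 FPKM in CF1 (-0.25, or -1.07). In these 3 genes the sport lay below replicates 1 and 2 of the parent and above replicate 3. Without replicate 3 the limma adjusted P was 0.0511 for PCP011059, 0.0573 for PCP024451 and 0.043 for PCP028501. Of 30 tubulins, the subunits of microtubules, none was called, and their sum was 2592, 2704 and 2936 FPKM in RCF1 and 1975, 2539 and 613 FPKM in CF1. Their median log2 fold change was 0.84 with and 0.21 without CF1 replicate 3. The 454 ribosomal protein genes had medians of 0.38 and 0.14 and the 179 cell division genes 0.44 and 0.15, and RCF1 lay above CF1 without overlap in 154 and 55 of them, against 20.4% of all genes. Over all genes the median was 0.12 with that library and 0.03 without it, and these shifts moved with CF1 replicate 3, in which dividing-cell markers were low. The part of that library's cells or RNA in them was not tested.

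Families defined by 1 domain name and at least 20 tested genes numbered 174. By the share of genes that rose in both fits, the pectinesterase inhibitors led (12.5%), followed by SAUR (6.90%), HSP20 (5.41%), DUF581 (5.00%, the single gene PCP031308) and Myb-like proteins (4.55%). By the share that fell, the order was VQ (9.68%), laccase (9.52%), pectinesterase inhibitor (8.33%), UDP-sugar glycosyltransferase (6.60%) and alpha/beta hydrolase fold-3 (6.45%). Each of these shares rests on 1 to 7 genes. No domain name was given for 26 of the genes that rose (18.3%) and 45 of those that fell (19.7%), close to the 18.1% of all genes. Of the gene lists, MADS-box genes, which set floral organ identity, had no call among 36. The list of NB-ARC and TIR resistance genes had none in both fits among 159, and 9 were called higher at 5 DAFB, where 0.902% of all genes were. The called genes were scattered over 327 scaffolds, and 6 pairs were direct neighbours, 4 of them changed in the same direction. PCP032922, the hypoxia-induced gene on scaffold01404, lay 10545 bases from PCP032923, a bHLH gene that fell.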

How the data were processed

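Skin RNA of both cultivars at 2 and 5 DAFB was sequenced from poly(A) libraries on an Illumina HiSeq instrument. The authors deposited FPKM per gene for 12 libraries. The submitters' processing notes name Trimmomatic 0.38, HISAT2 2.1.0, StringTie 1.3.4d and DESeq2. The methods name an apple reference, whereas the identifiers begin with PCP, so the build is not settled here and coordinates are those of the table. FPKM is not a count, hence the authors' count model could not be rerun. Depth in reads is not in the table, and the steps between low FPKM values gave relative depths of 1.1 to 1.27 in RCF1 and 1 to 1.33 in CF1. Genes with FPKM ≥ 1 in 3 libraries were tested on log2(FPKM + 1) with limma 3.58.1 in R 4.3.3 (trend), RCF1 against CF1 alone, with the study's thresholds (P under 0.05, log2 fold change of at least 1). P-values were adjusted over all 25707 genes by the Benjamini-Hochberg method. The fit was tested on simulated data. Gene lists were built from the domain names in the table. The members and lists were chosen with earlier results of these data known. Named were the 12 largest changes per direction among genes called in both fits with groups apart, up to 2 per list and direction, genes that the study names, genes passing the adjusted P, and the 5 largest per direction called only with CF1 replicate 3. Gene names and primers came from the study's supplementary lists. Alternatives were another pseudocount, filters, scalings, weights, 1 fit of all libraries, the replicate block, and each library left out.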

Additional observations from a re-analysis of the deposited data

Results flagged for a closer look

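The cultivar effect at 2 DAFB was set against that at 5 DAFB for each gene as a difference of differences in limma. With all 12 libraries 0 genes reached an adjusted P under 0.05 (4061 had an unadjusted P under 0.05), and without CF1 replicate 3 there were 262 of the 25707 tested. For 18 named genes the effects differed in the fit without that library. Many of them had been named for their difference at 2 DAFB in these same libraries. That choice favours a large difference of effects, so these genes are given as a description. Their differences, effect at 2 DAFB minus effect at 5 DAFB on the log2 scale, were as follows. The sport's excess was larger at 2 DAFB for PCP013133 (1.90), PCP030457 (1.75), PCP022619 (2.79), PCP026595 (2.35), the lipid transfer protein PCP020307 (1.64), the pyruvate decarboxylase PCP002576 (1.23), the SAUR gene PCP011894 (1.24) and sterol 14-demethylase PCP007404 (1.43). At 5 DAFB PCP022619 was at 0 FPKM in every library, and PCP026595 averaged 0.114 FPKM in RCF2 and 0.0815 FPKM in CF2. For PCP022619 and PCP026595 the value is thus nearly the 2 DAFB effect alone. The sport's excess was smaller at 2 DAFB, although positive on both days, for the wound-induced genes PCP020689 (-1.95), PCP042398 (-1.64) and PCP042085 (-2.01). The deficit seen at 2 DAFB was not called at 5 DAFB for the ACC oxidase PCP013494 (-1.82), ERF1B PCP016876 (-1.75) and the MYB/SANT-like gene PCP034539 (-1.84). PCP034539 had 2 DAFB values of 0.401, 0.063 and 0.205 FPKM in RCF1 and 5.62, 2.17 and 9.03 FPKM in CF1. The peroxidase PCP024451 (-0.90) showed a deficit at 2 DAFB only without CF1 replicate 3, and none was called at 5 DAFB. With all 12 libraries its difference had the opposite sign, at 0.63. The hydrolase PCP008156 (-2.67) was lower at 2 DAFB and higher at 5 DAFB. PCP018170, a 4-coumarate-CoA ligase, differed by -1.19 and was called on neither day. For PcCHS (PCP023048) the difference was -2.83, with a limma adjusted P of 0.0121, or 0.0594 with all libraries. PcCHS was lower in RCF1 than in CF1 and averaged 36.8 FPKM in RCF2 and 22.1 FPKM in CF2 (log2 fold change 0.76, adjusted P = 0.0629). The adjusted P of the 18 genes ran from 0.00629 to 0.0462.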

How the results depend on the processing

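The 742 genes called at 2 DAFB became 1231 on log2(FPKM + 0.1), 346 with a minimum of 10 FPKM, 1168 in 1 fit of all libraries, 1422 with array weights, 6 by the adjusted P, and 448 to 2359 on leaving out each library. After rescaling to TPM 449 were higher and 447 lower, in place of 261 and 481, with the median of all genes at 0.18. The 526 called without CF1 replicate 3 became 1048 on log2(FPKM + 0.1), 268 with the minimum of 10 FPKM and 102 by the adjusted P, and 474 to 1370 on leaving out a further library. The 371 called in both fits became 690 on log2(FPKM + 0.1) and 174 with that minimum, and 203 to 1181 on leaving out a library. The 324 at 5 DAFB became 684 on log2(FPKM + 0.1) and 251 to 443 on leaving out a library. The cause of these changes was not tested. Of 105 genes named with values, 76 kept their direction and their side of the threshold in every setting that could be run for them, at most 14 each. Those that turned round were PCP011059 (-1.38 with array weights), PCP024451 (-0.92 with array weights) and PCP028501 (0.42 on log2(FPKM + 0.1)). On leaving out a library PCP011059 ranged between -1.64 and 1.40, PCP024451 between -1.11 and 1.28, and PCP028501 between -1.07 and 0.17, with the lowest value without CF1 replicate 3 and the highest without CF1 replicate 2 in each. With the replicate block the 742 became 971 (0 of them by the adjusted P) and the 526 became 714, with no change of side for the 105 genes. The deviations of same-numbered libraries from their group means correlated at -0.179, 0.335 and -0.042, and those of other pairs at -0.275 to 0.294. With 3 libraries per group, these values cannot tell whether the numbers pair the samples. Depth is known only in relative terms, and genes under a few FPKM rest on few fragments. With 3 libraries per group, calls rest on an unadjusted P, and 6 or 102 survive adjustment.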

Other observations

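Several lists with few or no single calls differed in their summed level, which is given here as a description. All summed levels below are FPKM over the tested genes of a list. The 30 proteinase inhibitors, many of which guard tissue against insects, summed to 2766, 2260.3 and 2799 in RCF1 and to 4991, 2917 and 7576 in CF1. In 12 of them RCF1 lay below CF1 without overlap (8.79% of all genes did so), and the median log2 fold change was -0.48, or -0.33 without CF1 replicate 3. The 60 pathogenesis-related genes summed to 5317, 5364 and 5150.3 in RCF1 and to 6673, 6487 and 8879 in CF1, and at 5 DAFB to 6048, 5008 and 5595 in RCF2 and to 6739, 6406 and 6707 in CF2. The 159 NB-ARC and TIR resistance genes went the other way on both days, with 1238, 1257 and 1165 in RCF1 and 1059, 1133 and 1091 in CF1, then 1353, 1385 and 1309 in RCF2 and 1023, 820.3 and 1035 in CF2. The 113 homeobox genes summed to 2936, 2630.3 and 2879 in RCF1 and to 3929, 3182 and 4378 in CF1. Their median log2 fold change was 0.09, or -0.11 without CF1 replicate 3. In 17 of the 113 RCF1 lay above CF1 without overlap (20.4% of all genes did so), and in 13 below it (8.79% of all genes). None of these sums overlapped between the cultivars, and no test was made of them. At 2 DAFB the sum over all tested genes did not overlap either, at 599814 to 609645 in RCF1 and 626704 to 634742 in CF1. Other lists not shown here also had sums without overlap, so these lists are examples.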
